A study of Mus musculus with 6 samples.

Results

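The angiogenins and their RNase A relatives were followed in mouse ventral prostate through 8 microarray probes of 5 genes, Ang, Ang2, Ang4, Rnase1 and Rnase4, out of 41174 probes with 30820 gene or transcript names on the array. A probe was taken if the array's gene name, or the symbol that its RefSeq record now carries, was one of these genes. The probe called Ang1 on the array carries the record of Ang, so both names stand for 1 probe. Ang and Ang2 had 1 probe each, and Ang4, Rnase1 and Rnase4 had 2 each. All 8 passed the filter on dim signal that left 27860 probes for testing, so no member was lost to it. The genes were chosen by measured values, the high ratios of Ang4 in fl26 and of Ang in old wild type, so those values are given below as a description.

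RNase A family proteins are small secreted ribonucleases with a shared catalytic core. Angiogenin, the product of Ang, cuts RNA weakly, and is known for promoting blood vessel growth, for entering cells and the nucleus, and for cutting tRNAs during stress. Ang2 and Ang4 are mouse relatives of it from gene duplications in rodents, and Ang4 is best known as an antimicrobial protein of intestinal Paneth cells. Rnase1 is the pancreatic-type ribonuclease that degrades RNA outside cells, and Rnase4 is a ribonuclease with a preference for uridine whose gene is transcribed together with angiogenin in mammals.

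The study compared 3 kinds of mice with young wild type mice, all on the FVB background, in 6 arrays with 2 colours. In red (Cy5) were mice of line fl26 at 2.5 months, which carry full-length 15-LOX2 (15-lipoxygenase 2, an enzyme that oxidises arachidonic acid) as a transgene, mice of line svb9 at 2.5 months, which carry its splice variant b, or wild type mice at 15 months. In green (Cy3) were wild type mice at 2.5 months, on all arrays. Each kind of mouse had 2 arrays, described as biological replicates of pooled glands, with 3 mice per pool by the sample labels and 6 by the design text. Each transgene is represented by 1 line, the labels used here do not name the promoter that drives it, and it is not said if 1 young pool served several arrays. No array had swapped dyes, so dye and group cannot be told apart in a ratio to young wild type, whereas a dye effect cancels between fl26, svb9 and old wild type. These are whole-gland samples, in which fewer cells of a type and less RNA per cell cannot be told apart.

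The arrays differed in brightness. Red signal was well above background on 27151 and 17623 probes for fl26, on 27833 and 14620 for svb9 and on 3219 and 13600 for old wild type, whereas green signal was well above background on 24837 to 30382 probes. Old array 1 therefore stood apart, and the old wild type ratios of the members are given by array. The secretory genes Sbp and Spink1, which mark ventral prostate, were saturated in red on 5 of 6 arrays and in green on 6 of 6.

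The members lie in 1 cluster on chromosome 14, and the stretches around their transcription starts show how closely Ang and Rnase4 are tied. In the RefSeq table for GRCm38.p6, a C57BL/6J assembly and not the FVB genome, Ang and Rnase4 are listed with an identical first start, and Rnase4 has a further start of its own. These windows run from 250 bases before the start to 50 after it and are written 5′ to 3′ along the gene. Capitals mark matches to 3 motifs searched on both strands, the TATA core TATAAA, the hexamer AGAACA of the androgen receptor element and the GC box GGGCGG, which do not overlap one another here. The first window is at chr14:51090827-51091126 (plus strand), the next at chr14:51095750-51096049 (plus strand) and the last at chr14:51773541-51773840 (minus strand).
Ang and Rnase4, shared start: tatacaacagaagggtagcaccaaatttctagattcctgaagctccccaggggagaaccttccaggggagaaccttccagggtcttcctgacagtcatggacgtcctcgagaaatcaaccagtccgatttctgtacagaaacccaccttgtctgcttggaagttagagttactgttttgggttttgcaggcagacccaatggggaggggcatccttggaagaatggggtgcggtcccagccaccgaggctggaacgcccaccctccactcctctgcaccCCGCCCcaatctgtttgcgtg
Rnase4, further start: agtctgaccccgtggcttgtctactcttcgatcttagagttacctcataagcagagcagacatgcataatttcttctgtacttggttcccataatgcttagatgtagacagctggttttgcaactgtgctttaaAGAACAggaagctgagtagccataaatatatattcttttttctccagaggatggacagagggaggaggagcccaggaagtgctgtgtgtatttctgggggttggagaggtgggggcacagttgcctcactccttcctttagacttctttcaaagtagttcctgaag
Ang4: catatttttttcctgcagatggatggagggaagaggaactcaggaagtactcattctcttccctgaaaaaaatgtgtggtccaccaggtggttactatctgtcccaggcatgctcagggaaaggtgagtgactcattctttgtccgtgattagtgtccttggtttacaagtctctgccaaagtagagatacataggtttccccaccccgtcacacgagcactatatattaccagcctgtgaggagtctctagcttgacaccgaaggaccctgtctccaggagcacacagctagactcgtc
The shared window holds 1 GC box, on the opposite strand, 30 bases after the start. The further Rnase4 window holds 1 AGAACA at position -116 from its start, and the Ang4 window holds none of the 3 motifs. The Rnase1 window, at chr14:51146718-51147017 (minus strand), has 1 GC box on the opposite strand at position -67. Of 32851 promoter windows of this length, 13.6% held TATAAA, 19.0% AGAACA and 35.7% GGGCGG. Ang2 has no window shown.

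In young wild type prostate all 8 probes gave green signal well above background on the 6 arrays. The spread over the green channels was smaller for Ang than for Rnase1, and it depended on the scaling between arrays. Levels are log2 channel intensities after loess and scaling of the average intensity between arrays, and they are compared only within a probe. Ang had levels of 7.37 to 7.76 with a median of 7.47, and 7.54 ± 0.17 on average (SD, n = 6). Ang2 averaged 6.81 ± 0.29 and Ang4 probe 2 averaged 7.07 ± 0.30 (SD, n = 6 each). Rnase4 probe 1 averaged 7.52 ± 0.26, Rnase4 probe 2 averaged 6.68 ± 0.13, and Rnase1 probe 1 averaged 9.61 ± 0.38 (SD, n = 6 each). Without scaling between arrays the SD was 0.75 for Ang, 0.41 for Ang2 and 0.43 for Ang4 probe 2. It was then 0.54 for Rnase4 probe 1, 0.40 for Rnase4 probe 2 and 1.30 for Rnase1 probe 1.

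The angiogenin genes were higher in fl26 than in young wild type on both arrays and at every angiogenin probe, by 2.22-fold to 3.11-fold, while svb9, with the other 15-LOX2 isoform, lay between 0.70-fold and 1.04-fold. In old wild type the same probes stood 1.24-fold to 3.23-fold above young wild type after loess normalization. When each array was only centred on its median, old array 1 fell below young wild type at every angiogenin probe. Old array 2 stayed above it at those measured there. The Rnase4 and Rnase1 probes were nearer to young wild type than the angiogenins in fl26, but Rnase1 ran wider than them in svb9. Across their 4 probes the log2 ratios ran from -0.02 to 0.73 in fl26, from -0.85 to 0.43 in svb9 and from -0.37 to 0.06 in old wild type.

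**Figure D1:**
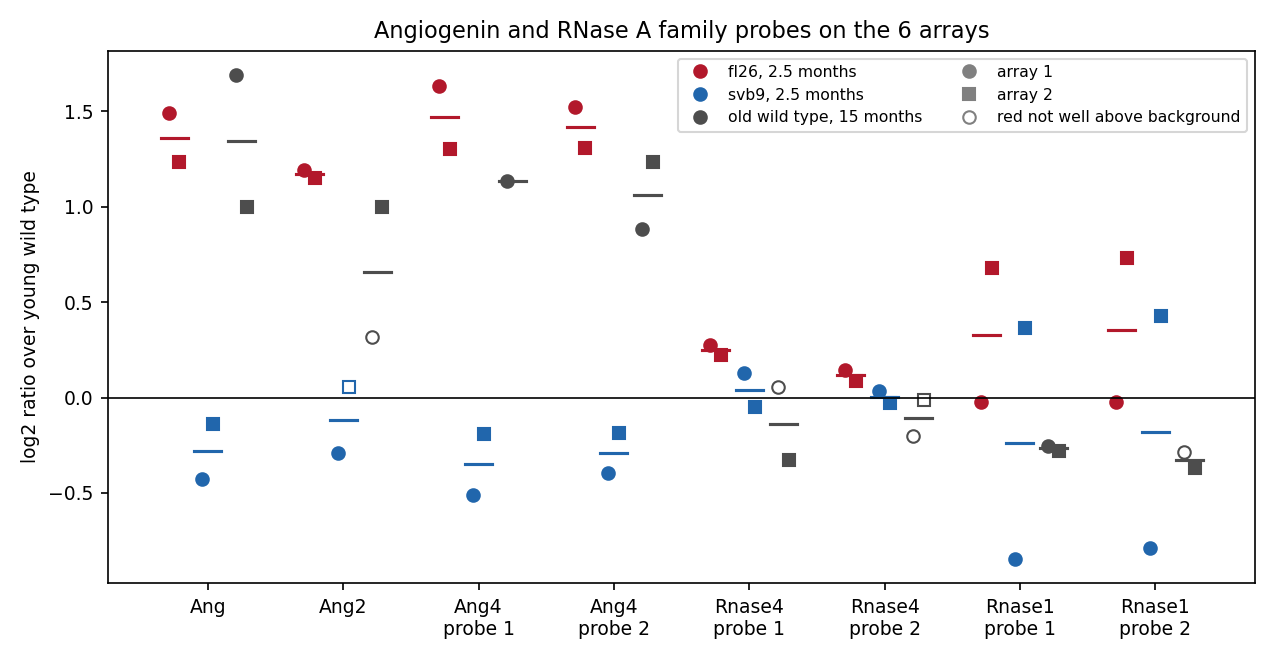
Log2 ratio over young wild type (y axis) for the 8 probes (x axis) in fl26 (red), svb9 (blue) and old wild type (grey), with circles for array 1, squares for array 2, open symbols for red signal not well above background, and bars for the mean of the arrays measured. The 4 angiogenin probes lie at 1.15 to 1.64 in fl26 and at -0.51 to 0.06 in svb9. The old wild type values of 0.32 to 1.69 hold after loess but turn below 0 on average under median centring, where old array 1 alone lies below 0.

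Ang, the angiogenin gene itself (probe A_51_P391159), had log2 ratios of 1.49 and 1.23 on the fl26 arrays, -0.42 and -0.14 on the svb9 arrays and 1.69 and 0.997 on the old arrays. The fl26 and svb9 arrays did not overlap, but the share of all probes for which this holds was not counted. Behind the fl26 ratios were red spots of 1533 and 408 intensity units over local backgrounds of 79 and 78, against green young wild type spots of 218 and 180 over 39 and 41. On the old arrays the red spots read 146 and 222 over backgrounds of 78, against green young wild type spots of 203 and 192 over 42 and 39. Thus on old array 1 the red spot was dimmer than the green one before normalization. The mean log2 ratio was 1.36 ± 0.17 in fl26 (limma SE, n = 2 arrays), and 1.34 ± 0.17 in old wild type, where median centring gave -0.13. As channel levels, Ang stood at 8.91 and 8.67 in fl26, 7.08 and 7.23 in svb9 mice and 9.45 and 8.73 in old wild type, against 7.37 to 7.76 in young wild type. Both fl26 levels lay above all 6 young levels, and both svb9 levels lay below them. Without scaling between arrays, the svb9 levels of 7.88 and 6.96 lay within the young range of 6.47 to 8.39.

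Ang4, the antimicrobial angiogenin, was read by a pair of probes that differed by at most 0.25 log2 units on the 5 arrays where both were measured. Probe 2 (A_51_P502906) had log2 ratios of 1.52 and 1.31 in fl26, -0.40 and -0.19 in svb9 mice and 0.89 and 1.23 in old wild type. Its mean was 1.42 ± 0.11 in fl26 (limma SE, n = 2 arrays), a 2.67-fold difference, and 1.06 ± 0.11 in old wild type, where median centring gave -0.10. Probe 1 (A_52_P98778), the brighter one, had log2 ratios of 1.64 and 1.30 in fl26 and -0.51 and -0.19 in svb9. In old wild type probe 1 had 1.14 on array 1 only, because its spot on array 2 was marked as an outlier and left out, and median centring gave -1.32 there. The levels of probe 2 were 8.26 and 8.32 in fl26, 6.49 and 6.75 in svb9 mice and 8.38 and 8.61 in old wild type, against 6.73 to 7.49 in young wild type. The fl26 levels lay above the whole young range, and 1 of the 2 svb9 levels lay within it.

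Ang2 is an angiogenin relative. Its probe (A_51_P349888) had log2 ratios of 1.19 and 1.15 in fl26, -0.29 and 0.06 in svb9 mice and 0.32 and 0.997 in old wild type. Red signal was not well above background on svb9 array 2 and old array 1. The mean was 1.17 ± 0.17 in fl26 (limma SE, n = 2 arrays), 2.25-fold, and 0.66 ± 0.17 in old wild type, where median centring gave -0.22. Its levels were 7.83 and 7.81 in fl26, 6.36 and 6.68 in svb9 mice and 7.67 and 7.94 in old wild type, against 6.62 to 7.35 in young wild type.

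Because angiogenin genes are close in sequence and the probe sequences were not used here, it is uncertain how far each probe reads its own gene alone. A probe for Ang5, a further angiogenin that is called Ang3 on the array, was looked up after its values were seen. It had log2 ratios of 1.84 and 0.94 in fl26, -0.56 and -0.48 in svb9 and 0.86 on old array 1 after loess, where median centring gave -1.39. Among the 27860 tested probes, ordered from the highest fl26 mean, Ang4 held places 10 and 13, Ang5 place 14, Ang place 16 and Ang2 place 22. These places rest on fl26 values that helped to choose the genes, so they are a description only.

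**Figure D2:**
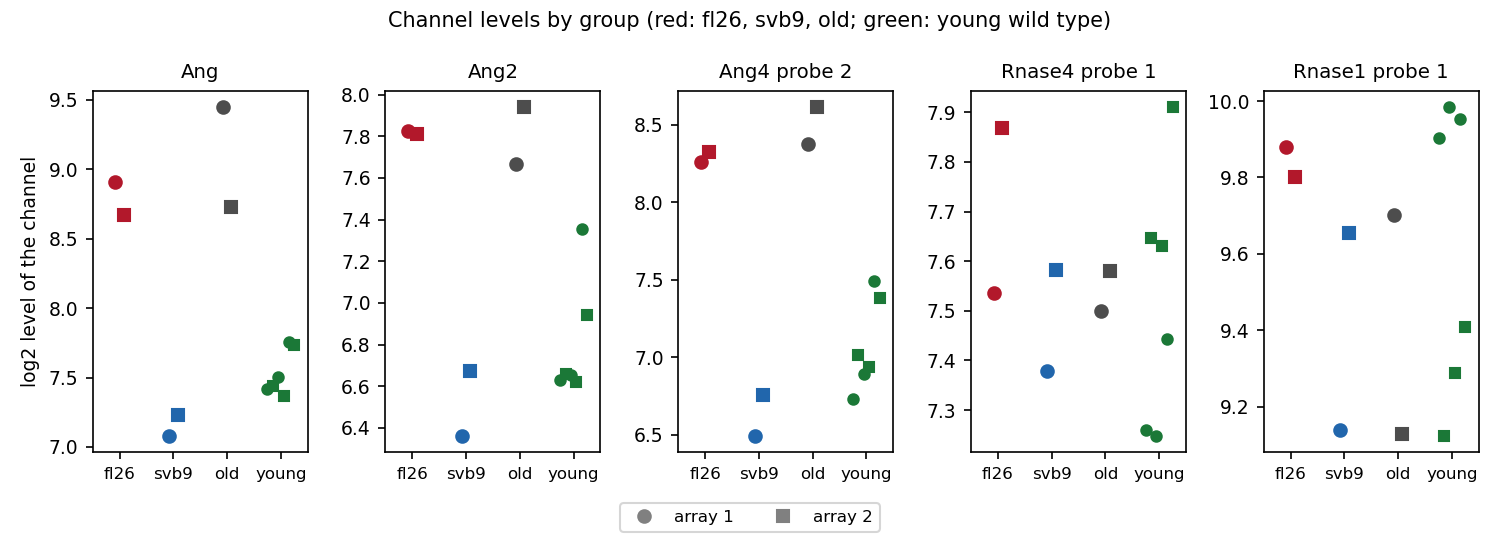
Log2 channel level (y axis) of 5 probes in fl26, svb9 and old wild type (red channel, 2 arrays each) and in young wild type (green channel, 6 arrays), with circles for array 1 and squares for array 2 of each group. For Ang, Ang2 and Ang4 the fl26 points lie above all young points. After loess and scaling between arrays the old points do too, but their mean ratios turn below 0 under median centring, through array 1 alone. For Rnase1 the young points split by array number, at 9.90 to 9.98 on the first arrays and 9.12 to 9.41 on the second. For Rnase4 probe 1 they split the other way, at 7.25 to 7.44 on the first arrays and 7.63 to 7.91 on the second.

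Rnase4, which shares its first start with Ang, was nearer to young wild type than Ang was in fl26. Probe 1 (A_51_P237383) had log2 ratios of 0.27 and 0.22 in fl26, 0.13 and -0.05 in svb9 mice and 0.06 and -0.33 in old wild type, with red signal not well above background on old array 1. Its mean in fl26 was 0.25 ± 0.11 (limma SE, n = 2 arrays), set against 1.36 ± 0.17 for Ang on the same arrays. Probe 2 (A_52_P262511) had log2 ratios of 0.15 and 0.09 in fl26 and 0.03 and -0.03 in svb9. In old wild type probe 2 was not well above background in red on either array, and no fold is given. The fl26 levels of probe 1, 7.53 and 7.87, lay within the young range of 7.25 to 7.91.

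Rnase1, the extracellular pancreatic-type ribonuclease, was the member whose replicate arrays differed most in fl26 and svb9. Probe 1 (A_51_P472153) had log2 ratios of -0.02 and 0.68 in fl26, -0.85 and 0.37 in svb9 mice and -0.25 and -0.28 in old wild type. Probe 2 (A_52_P249798) had -0.02 and 0.73 in fl26, -0.79 and 0.43 in svb9 mice and -0.28 and -0.37 in old wild type, within 0.09 of probe 1 on every array. Red signal of probe 2 was not well above background on old array 1. In fl26 and svb9 the difference between arrays 1 and 2 was thus measured alike by both probes. Its green young wild type level at probe 1 split by array number, without overlap. It was 9.90 to 9.98 on the first array of each group and 9.12 to 9.41 on the second. The red levels at probe 1 were 9.88 and 9.80 in fl26, 9.14 and 9.65 in svb9 and 9.70 and 9.13 in old wild type. Such a split of young levels was not particular to Rnase1. Both Rnase4 probes split the other way, probe 1 at 7.25 to 7.44 on the first arrays and 7.63 to 7.91 on the second. The share of all probes with such a split was not counted. Median centring gave Rnase1 probe 1 a mean of -2.31 in old wild type, against -0.27 after loess.

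Of the 6 ventral prostate luminal markers, Sbp, Spink1, Pbsn and Krt18 were saturated in red on at least 1 array, so their ratios are not exact and no median of the list is given. The luminal keratin Krt8, not saturated, had -0.16 and 0.08 in fl26, 0.04 and -0.15 in svb9 and 0.51 on old array 1, where alone of the old arrays it was measured. Itln1, a lectin of secretory epithelia, was looked up after its values were seen, with -0.03 and 1.26 in fl26 and -2.68 and 1.42 in svb9. By the correlation of log2 ratios over 6 arrays, the named genes most like Rnase1 probe 1 were Sgpl1 (r = 0.990), Pnliprp1 (r = 0.984) and Ackr3 (r = 0.981). Pnliprp1, a pancreatic lipase relative, had 0.41 and 1.37 in fl26, -1.65 and 1.15 in svb9 mice and -0.14 and -0.20 in old wild type. The medians of 5 measured pancreatic acinar markers stayed between -0.02 and 0.06 on all 6 arrays. These medians are limited by dim signal, since only Ctrb1 was clearly brighter than background in red on every array. Cpa1, Cpb1 and Prss2 were so on 1 fl26 array, 1 svb9 array and no old array, and Pnlip on none. Ctrb1 had -0.01 and 0.38 in fl26, 0.10 and 0.05 in svb9 and 0.22 and 0.20 on the old arrays. The part of the luminal and acinar markers and the other genes named here in the Rnase1 values was not tested.

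In svb9 over young wild type, a comparison that did not choose the members, no member passed the test. Called means a Benjamini-Hochberg adjusted p under 0.05 by limma over all tested probes. In svb9, 0 of 8 member probes were called, against 0.0% of 27860 probes, while 2 members and 1240 probes had an unadjusted p under 0.05. These 2 were the Ang4 probes, with mean log2 ratios of -0.35 ± 0.13 and -0.29 ± 0.11 (limma SE, n = 2 arrays) and adjusted p = 0.980 each by limma. Ang had -0.28 ± 0.17 (adjusted p = 0.980 by limma), Ang2 had -0.12 ± 0.17 (adjusted p = 0.987 by limma), and the 4 Rnase4 and Rnase1 probes had adjusted p of at least 0.981 by limma. Both svb9 levels lay below all 6 young levels at Ang, an arrangement found for 8.1% of the 26016 probes measured on all 6 arrays. At Ang4 probe 1, measured on 5 arrays and so not among those probes, both lay below its 5 young levels. Without scaling between arrays, the svb9 levels lay within the young range at Ang and at Ang4 probe 1.

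For fl26 over young wild type, Ang4 probe 2 was the 1 of 8 member probes called, against 0.0503% of all tested probes, or 14 probes. Of these, 6 probes were higher, 0.0215% of those tested. Unadjusted p was under 0.05 for 4 members, the 4 angiogenin probes, and for 2833 probes in all. The same 4 probes were at least 2-fold higher on both fl26 arrays, as were 0.0721% of 27739 probes. Both fl26 levels lay above all 6 young levels at Ang, Ang2 and Ang4 probe 2, as they did for 5.2% of the 26016 probes measured on all arrays, and above the 5 measured at Ang4 probe 1. These shares stand beside values that helped to choose the genes. The call of Ang4 probe 2 was lost whenever any 1 of the 6 arrays was left out.

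For old wild type over young wild type, 0 of 8 member probes were called, against 0.0% of 27626 tested probes, while 4 members and 3158 probes had an unadjusted p under 0.05. No member measured on both old arrays was at least 2-fold higher on both, against 0.122% of 26152 probes. Ang came close, at 3.23-fold and 1.996-fold, and Ang4 probe 1 was measured on old array 1 only. After loess and scaling between arrays, both old wild type levels lay above all 6 young levels at Ang, Ang2 and Ang4 probe 2. The same arrangement was found for 9.59% of the 26016 probes. Without scaling between arrays it held at none of these members, with Ang at 8.16 and 8.12 against young levels of up to 8.39. Red signal of Ang2 on old array 1 was not well above background. The mean ratios of these members turned below 0 under median centring. Relative to the array's own median of tested probes under median centring, -0.45 on old array 1 and -0.24 on old array 2, Ang stood at -0.01 and 0.43, Ang2 at -0.42 and 0.68 and Ang4 probe 2 at -0.25 and 0.73. In fl26 the same measure gave 1.88 and 1.10 for Ang, 1.40 and 1.08 for Ang2 and 1.80 and 1.20 for Ang4 probe 2. Thus both fl26 arrays held the angiogenins above the array median under either scaling, while old wild type did so on array 2 alone under median centring.

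**Figure D3:**
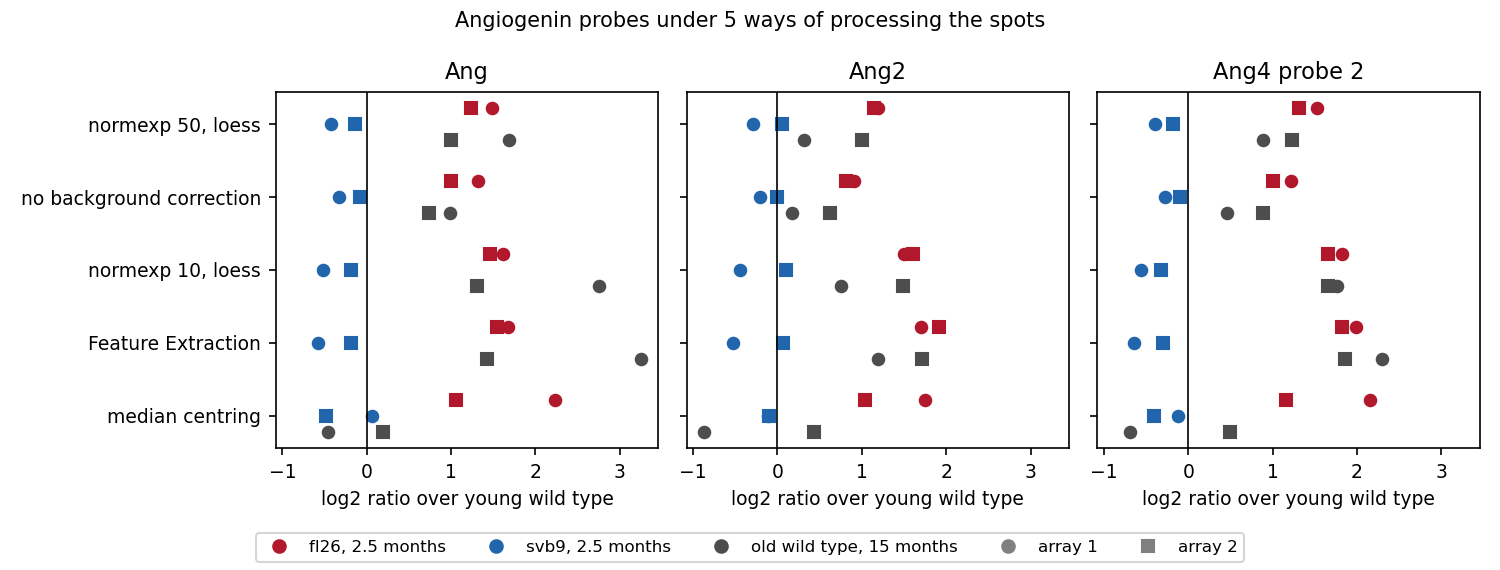
Log2 ratio over young wild type (x axis) of Ang, Ang2 and Ang4 probe 2 under 5 ways of processing the spots (rows), by array (circles for 1, squares for 2), in fl26 (red), svb9 (blue) and old wild type (grey). The fl26 points stay above 0 in every row, while old array 1 gives 1.69 for Ang after loess and -0.46 under median centring.

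The 3 kinds of mice were also set against each other, where the dye cancels. These differences reuse the fl26 and old wild type values and are no independent evidence. For fl26 minus svb9, the mean log2 difference was 1.64 ± 0.24 for Ang, 1.29 ± 0.24 for Ang2, 1.82 ± 0.18 for Ang4 probe 1 and 1.71 ± 0.16 for Ang4 probe 2 (limma SE, n = 2 arrays each). The Rnase4 and Rnase1 probes differed by 0.11 to 0.57. In this comparison 0 of 8 members were called, against 0.0% of probes, and the lowest adjusted p was 0.297 by limma, with 4 members and 607 probes at an unadjusted p under 0.05. Fl26 array 1 and svb9 array 1, extracted from their images on 1 date, differed by 1.91 for Ang, 1.48 for Ang2 and 1.92 for Ang4 probe 2.

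For old wild type minus fl26 and old wild type minus svb9, 0 of 8 members were called, against 0.0% of probes in each, with 1 and 4 members at an unadjusted p under 0.05 by limma, beside 2138 and 1301 of all probes. Old wild type minus svb9 was 1.62 ± 0.24 for Ang and 1.35 ± 0.16 for Ang4 probe 2 after loess (limma SE, n = 2 arrays each). The old wild type means behind these differences turn under median centring, through old array 1 alone. Within the date they share, old array 2 minus svb9 array 2 was 1.13 for Ang and 1.42 for Ang4 probe 2. Old array 1 minus fl26 array 2, also of 1 date, was 0.46 for Ang, -0.83 for Ang2 and -0.42 for Ang4 probe 2.

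Other genes of the RNase A family were read where the array held them. Of 22 further family genes 10 were on the array and 8 were tested, and no gene was called against young wild type. Their median log2 ratio was 0.13 in fl26, -0.06 in svb9 mice and 0.05 in old wild type, with 6, 1 and 6 genes above 0 (-0.04 and 0.09 on the old arrays), beside medians of 0.00, 0.00 and -0.02 over all tested probes. Of 16 neighbours of the members in the cluster, 6 were on the array and 2 were tested, Rnase6 and Rnase2a. Rnase6 had -0.08 in fl26, -0.10 in svb9 and 0.09 and 0.10 on the old arrays, and Rnase2a had -0.07 in fl26, 0.00 in svb9 and -0.29 and 0.00 on the old arrays. Apart from Ang5, none of the 8 tested genes had red signal well above background on an old array. Rnase6 had such signal on 1 fl26 array and no svb9 array, and Rnase2a on both fl26 arrays and 1 svb9 array. The ratios of Rnase6 and the old wild type ratio of Rnase2a therefore come from dim signal.

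Genes tied to these ribonucleases showed no call in the 3 comparisons with young wild type. Rnh1, the cytosolic inhibitor that binds RNase A proteins, had log2 ratios of -0.03 and 0.67 in fl26, 0.01 and 0.06 in svb9 mice and -0.38 and -0.26 in old wild type. The reported angiogenin receptor Plxnb2 averaged -0.19 in fl26, 0.00 in svb9, with 0.14 and 0.18 on the old arrays. Egfr, reported as a receptor for human RNase 5, averaged -0.09 in fl26, -0.06 in svb9, with -0.02 and -0.34 on the old arrays, and Epha4, reported as a receptor for human RNase 1, averaged 0.40 in fl26, 0.03 in svb9, with 0.11 and -0.25 on the old arrays. The enzymes Trdmt1 and Nsun2, which methylate tRNAs and so protect them from angiogenin, averaged 0.02 and 0.21 in fl26 and 0.00 and -0.02 in svb9. On the old arrays Trdmt1 had 0.09 and 0.12, and Nsun2 had -0.37 on array 1, where alone it was measured. Epha4 had red signal well above background on neither old array, and the other genes of this list on 1 only. Dim signal thus limits their old wild type values.

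No gene on the lists for blood vessels was called against young wild type. Of 19 angiogenic factors and receptors 17 were tested and none was called, with median log2 ratios of 0.08 in fl26, 0.04 in svb9, and -0.04 and 0.04 on the old arrays. Of 13 endothelial markers 12 were tested and none was called, with medians of 0.23 and -0.12 on the fl26 arrays, -0.01 and -0.11 on the svb9 arrays and 0.01 and 0.01 on the old arrays. Most of these markers, and many of the angiogenic genes, had red signal well above background on neither old array. Dim signal thus limits their old wild type medians. Of 17 secreted antimicrobial genes 12 were tested and none was called, and their median was 0.18 in fl26, with 9 of 12 above 0, 0.00 in svb9, and -0.12 and 0.03 on the old arrays. The 4 measured Paneth cell markers had medians of 0.00 and 0.48 on the fl26 arrays, -0.16 and 0.36 on the svb9 arrays and 0.03 and 0.25 on the old arrays. The 8 macrophage markers had medians of 0.42 and -0.04 on the fl26 arrays, 0.08 and -0.15 on the svb9 arrays and 0.00 and 0.03 on the old arrays, and none was called. The 4 basal epithelial markers were all above 0 on average in fl26 and none was called, with medians of 0.59 and 0.29 on the fl26 arrays, -0.03 and 0.07 on the svb9 arrays and 0.13 and -0.22 on the old arrays. The genes Trp63, Lyz1 and Lyz2 were picked out after their values were seen. Trp63, the basal cell transcription factor p63, had 0.78 and 0.86 in fl26 (adjusted p = 0.059 by limma), 0.06 and 0.10 in svb9 and 0.37 and 0.20 on the old arrays. The lysozyme gene Lyz1 had 1.06 and 0.77 in fl26, 0.46 and -0.03 in svb9 and 0.04 and 0.46 on the old arrays. Lyz2, the lysozyme of macrophages, had 1.11 and 0.47 in fl26, 0.30 and 0.06 in svb9 and -0.25 and 0.39 on the old arrays. Trp63 and Lyz1 had red signal well above background on only 1 old array each. The part of these cell types and genes in the angiogenin values was not tested.

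The genes whose log2 ratios followed a member most closely over the 6 arrays were ranked by r for each member. For Ang4 probe 2 these were Slc25a33 (r = 0.996), Hpse (r = 0.987) and Ms4a4b (r = 0.986). Slc25a33, a mitochondrial nucleotide carrier, had 0.31 and 0.30 in fl26, -0.04 and 0.00 in svb9 mice and 0.22 and 0.26 in old wild type. For Ang they were Hhat (r = 0.978), Npm3 (r = 0.966) and Rnf41 (r = 0.964), and for Ang2 they were Hhex (r = 0.982), Hpse (r = 0.972) and Ms4a4b (r = 0.968). For Rnase4 probe 1 they were Mmp15 (r = 0.994), Slc8a2 (r = 0.993) and Ctsk (r = 0.989). The brighter Ang4 probe was not ranked, since it had 5 arrays. These are the highest of up to 26016 correlations over 6 arrays that share the young wild type mice, and are given as a description.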

How the data were processed

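Spot intensities were measured by software of the scanner's maker (Agilent Feature Extraction A.7.5.1, as the file headers give it), and the deposited mean intensity and median background intensity of each channel were not normalized. The deposited log10 ratios (red over green) had background subtraction and dye normalization in that software, per the file headers, and the deposited series table holds them rounded (largest difference 0.0050).

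From the intensities, log2 ratios were computed in R 4.3.3 with limma 3.58.1 after normexp background correction (offset 50) and loess, without outlier spots and with control spots at weight 0. Spots of a probe were averaged. A probe was tested if, in 1 channel, both arrays of some group had it well above background. A limma model of 3 group means over 6 arrays was tested 2-sided, with Benjamini-Hochberg adjustment over all tested probes. It leaves out the spread of young wild type itself where arrays shared a pool. Levels used loess and Aquantile scaling. The number of arrays limits the precision. The script was tested on simulated data.

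Symbols came from RefSeq (20716 probes by systematic name, 10 by another accession), the others keeping the file's name. Gene lists were described on each gene's brightest probe, and the named genes were all member probes, called list genes, the inhibitor and receptor list, and for each member the 3 genes of highest r. Members and lists were chosen with earlier results of these data known. Sequences are RefSeq's. The alternatives are in the closing section.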

Additional observations from a re-analysis of the deposited data

Results flagged for a closer look

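At Ang4 probe 1, the green young wild type level on old array 1, 8.45 on the log2 scale, lay far from the other 4 measured. Chance flags about 1 in 20 groups.

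Some probes had every array of a pair of groups on opposite sides of 0. The share of all tested probes with this arrangement was not counted, so these probes are given as a description. For fl26 minus svb9 the mean difference was 1.64 for Ang, 1.82 for Ang4 probe 1 and 1.71 for Ang4 probe 2, with fl26 above 0 and svb9 below it, and limma gave adjusted p = 0.597, 0.355 and 0.297. For old wild type minus svb9 it was 1.62 for Ang and 1.35 for Ang4 probe 2 after loess (adjusted p = 0.785 and 0.724 by limma), with the old wild type side turned on array 1 alone under median centring. For old wild type minus fl26 it was -0.22 for Rnase4 probe 2 (adjusted p = 0.723 by limma), whose old wild type signal was not well above background.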

How the results depend on the processing

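For fl26 over young wild type, the member probes called were 1 of 8, and 0 without background correction, under median centring, with the Feature Extraction log ratios, with the series table and with only the arrays of the groups compared. They were 4 with a variance trend, 3 with the extraction date as a term and 3 with a normexp offset of 10, the last an alternative chosen after seeing the data. Leaving out each array in turn gave 0 calls every time. For old wild type over young wild type, the count was 0, and 2 with the strict filter on dim probes, 2 with a variance trend, 1 with only the arrays of the groups compared and 4 with an offset of 10, and 0 with any array left out. For fl26 minus svb9 it was 0, and 1 with a variance trend and 1 with an offset of 10. In svb9 no alternative gave a member call. The cause of these changes was not tested.

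The replicate numbers pair no mice by the labels. Deviations of same-numbered arrays correlated with r = 0.586, 0.331 and 0.166 over 26016 probes. Under a replicate block the member calls were 4 in fl26, 4 in old wild type, 1 for fl26 minus svb9 and 0 elsewhere, and over all probes 1001 in fl26, 12 in svb9, 1211 in old wild type, 10 for fl26 minus svb9 and 25 for old wild type minus fl26. Over all probes fl26 gave 14 calls, and 0 to 121 under the other alternatives, old wild type 0, and 0 to 690, fl26 minus svb9 0, and 0 to 4, and old wild type minus fl26 0, and 0 to 5.

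Across 18 or 19 alternatives no angiogenin ratio of fl26 changed sign (Ang 1.16 to 1.65, Ang2 0.86 to 1.81, Ang4 probe 2 1.11 to 1.90). In old wild type, median centring, which moved the median of an array's tested probes to between -0.45 and 0.35, gave -0.13 for Ang, -0.22 for Ang2, -1.32 for Ang4 probe 1 and -0.10 for Ang4 probe 2, whereas the Feature Extraction ratios gave 2.34, 1.45, 2.17 and 2.08. The sign of Rnase1 in fl26 and svb9 changed with the array left out (probe 1: -0.02 to 0.68 in fl26, -0.85 to 0.37 in svb9). Without scaling between arrays, level differences to young wild type for Ang were 1.81 in fl26, -0.05 in svb9 mice and 0.67 in old wild type, against 1.25, -0.38 and 1.55 with it. Signal over background limits old array 1 most.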
